A study of Mus musculus with 95 samples.

Results

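Kidneys were compared between mice kept for 3 months in TLS, the study's abbreviation for a state resembling torpor, and mice whose kidneys were collected at time zero, before that period began. All 16 libraries of these 2 groups, out of 95 in the series, entered the comparison, with 8 kidney libraries labelled as stimulated and 8 labelled as time zero. Another 8 kidney libraries came from control mice that lived through the same 3 months without TLS, and their values stand beside the comparison. Every animal was C57BL/6J, an inbred laboratory strain, and each group of 8 held 4 animals marked F and 4 marked M. TLS and control mice were 205 days old at collection and time-zero mice about 3 months younger, so a difference between TLS and time zero combines TLS with 3 months of age. How TLS was brought about, and the hour of collection and the last meal, are not stated in the labels or files. Each library held poly(A) RNA of 1 kidney from 1 animal, taken after the circulation had been rinsed with buffered saline.

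The kidney filters blood in its glomeruli, whose outer cells are the podocytes, and then reclaims glucose, phosphate, amino acids and salt along the proximal tubule, the thick ascending limb, the distal tubule and the collecting duct. The proximal tubule works with a large supply of energy from fatty acids, and it also makes glucose and ammonia and activates vitamin D. Torpor is a regulated fall in metabolic rate and body temperature that small mammals use to save energy, during which renal blood flow and filtration fall as well. Interferon gamma is a cytokine of T and natural killer cells that makes many cell types, tubule cells among them, raise their antigen presentation genes and a group of GTP-binding proteins that act against intracellular microbes.

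Total counts per library were 13960312 to 28337864 after TLS, 14304253 to 20951969 at time zero and 8217875 to 19936007 in controls. All 24 libraries carried Xist or Y-linked counts that fitted their sex letter. The library of TLS animal A5DA (M) stood apart before any test. Its summed level of 24 markers of tubular injury and repair was 13770 CPM (counts scaled to the library's TMM-adjusted total, as all CPM values here), against 1229 to 2806 CPM at time zero and 1318 to 2130 CPM in controls. Its level of Havcr1, the kidney injury molecule of proximal tubule cells, was 257 CPM against at most 5.43 in the other 7 TLS libraries. Its RNA also held 0.959% of counts in 3 nuclear RNAs (Malat1, Neat1 and Meg3), against at most 0.612% in the other TLS libraries. TLS animal B4B9 (F) was high for interferon genes without that injury level (mean difference of the injury list from time zero 0.596 on the log2 scale, against 3.28 in A5DA). Time-zero animal 3 carried 58.3 CPM of Star, a gene of steroid-producing cells such as those of the adjoining adrenal gland, against at most 2.19 in the other 7. Results below are given with and without these libraries where that matters. Time-zero animals 1 to 4 had library numbers of 58 to 94, as TLS libraries did (56 to 93), while time-zero animals 5 to 8 and all controls had higher numbers. The labels do not say what the numbers stand for.

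Of 16005 genes tested, 0.681% differed between TLS and time zero at a Benjamini-Hochberg adjusted p below 0.05 in edgeR's quasi-likelihood test with sex as a covariate. These were 54 genes higher after TLS (0.337%) and 55 lower (0.344%), and 49 of them differed by more than 2-fold. At an unadjusted p below 0.05 the number was 2420, and the median log2 fold change over all tested genes was 0.0129. The 8 TLS libraries lay wholly above or wholly below the 8 time-zero libraries for 25 genes (0.156%), of which 21 were among those called. The 13 that lay above included Ubd, Gbp6, H2-DMb1, H2-K1 and Gpc3, and the 12 that lay below included Gfra1, Hmx2, Slc5a2, Acmsd and Slc35f3. With each of the 24 libraries left out in turn, the number of called genes ran from 36 without B4B9 to 324 without TLS animal 47BE. It was 45, 46, 50, 52 and 72 without time-zero animals 1, 2, 3, 6 and 7, and 0.851% of the genes tested without A5DA, while every called gene kept its sign in each of these fits. DESeq2 called 408 genes and limma voom with sample weights 2269 on the same 16005 genes. With the 4 time-zero libraries numbered like the TLS libraries, animals 1 to 4, as the only reference, 14 genes were called. Animals 1, 2 and 3 are F and animal 4 is M, so this reference was also smaller and unbalanced by sex. The part of the library numbers in that count was not tested.

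**Figure D1:**
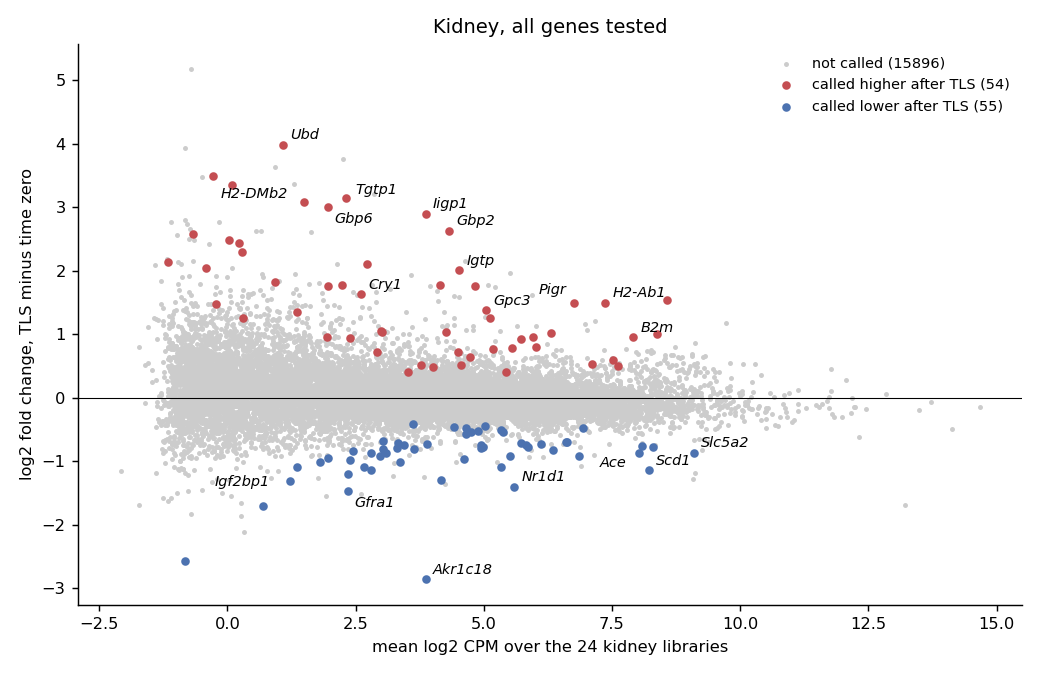
Each point is 1 of the 16005 tested kidney genes, with the mean log2 CPM over the 24 libraries on the horizontal axis and the log2 fold change of TLS against time zero on the vertical axis. Red points are the 54 genes called higher after TLS, blue points the 55 called lower and grey points the genes not called. The largest called rises are of genes with low to middling levels such as Ubd, while Slc5a2 and Scd1 are called falls at high levels.

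Controls of the same age as the TLS mice differed from time zero in 50 genes (0.312%; 22 higher and 28 lower), and TLS differed from control in 37 (0.231%; 13 higher and 24 lower). The comparisons share their libraries in pairs, so each gene below is given with its value in all 3 comparisons and nothing is drawn from their overlap. A gene that differs from time zero in both older groups cannot be assigned to TLS apart from age, and one that also differs from control differs between 2 groups of equal age. A change in bulk kidney RNA does not tell fewer cells of a type from less RNA per cell.

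Of the 12 largest called rises among genes with a given name and above the level floor set for naming, 5 were of genes on the list of the interferon response (Ubd, Iigp1, Gbp2, Ifi47 and Igtp). Ubd encodes a ubiquitin-like protein that interferon gamma and tumour necrosis factor raise together (chromosome 17, 37193892 to 37196095, plus strand, GRCm38, as for all positions here). It had the largest of these rises, with 0.367 to 1.43 CPM at time zero (median 0.777) and 1.89 to 84.3 CPM after TLS (median 4.71). No TLS library overlapped with time zero, while controls, at 0.650 to 3.21 CPM (median 1.36), lay between. The log2 fold change of Ubd was 3.98 ± 0.678 (SE, adjusted p = 0.00537) against time zero and 3.27 (adjusted p = 0.0293) against control, and controls differed from time zero by 0.71 (adjusted p = 0.758). Its highest TLS value was that of A5DA, and without that library the log2 fold change was 2.91 (adjusted p = 0.00067).

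Several guanylate-binding proteins and immunity-related GTPases, families that attack the vacuoles of intracellular pathogens, rose as well. Gbp2 (chromosome 3, 142620602 to 142638008, plus strand) had 8.08 to 16.8 CPM at time zero (median 11.8), 15.6 to 277 CPM after TLS (median 25.9) and 8.57 to 24.8 CPM in controls (median 16.9). Only the lowest TLS library reached into the time-zero range, and A5DA and B4B9 stood far above the other 6. Its log2 fold change was 2.63 ± 0.548 (adjusted p = 0.0249), with 0.43 for control against time zero and 2.20 (adjusted p = 0.119) for TLS against control. Gbp6 rose by 2.999 ± 0.517 (adjusted p = 0.0054), Gbp10 by 2.44 ± 0.522 (adjusted p = 0.0249) and Gbp8 by 2.29 ± 0.533 (adjusted p = 0.041). Of the immunity-related GTPases, Tgtp1 (chromosome 11, 48985327 to 48994172, minus strand) moved from 1.36 to 3.54 CPM at time zero (median 2.20) to 4.69 to 112.9 CPM (median 7.98). These 2 ranges did not overlap, and the log2 fold change was 3.15 ± 0.633 (adjusted p = 0.0209). Iigp1 rose by 2.90 ± 0.582 (adjusted p = 0.0219), Igtp by 2.003 ± 0.460 (adjusted p = 0.041) and Ifi47 by 2.10 ± 0.502 (adjusted p = 0.04996, just inside the threshold). Many of these genes lie in clusters of near-identical copies, so reads may have been split between neighbours in counting.

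Among 36 tested genes of a list of the interferon response, 6 were called higher (Ubd, Gbp2, Gbp5, Iigp1, Igtp and Ifi47) and none lower, against 0.337% of all genes called higher. All 36 fold changes were above 0, with a median of 0.84 on the log2 scale against 0.0129 over all genes. Controls had a median of 0.36 against time zero for the same list. Without A5DA the median was 0.49 with 3 genes called, without B4B9 0.58 with 1 called, and without both 0.18 with 3 called. With the share of nuclear RNA, which was highest in A5DA, added to the model, the median was 0.345 with 1 gene called, and Ubd alone of the rises above kept its call (2.51, adjusted p = 0.00571). The adjusted p was then 0.051 for Gbp6, 0.117 for Gbp10, 0.151 for Tgtp1, 0.162 for Iigp1 and 0.196 to 0.298 for Gbp8, Gbp2, Igtp and Ifi47. Over all genes that fit kept 41.3% of the calls. The summed level of the list was 306.5 to 459.4 CPM at time zero and 327.6 to 2413 CPM after TLS, with the maximum in B4B9, so the 2 groups overlapped. Of single genes, Ubd and Gbp6 stayed called in all 24 leave-outs. Tgtp1 lost its call without time-zero animals 1, 2 or 3, Iigp1 also without B4B9, Gbp10 without these 4 or time-zero animal 6, and Gbp2 also without time-zero animal 7 (highest adjusted p = 0.0872, for Gbp10). Gbp8, Igtp and Ifi47 lost theirs in 13, 14 and 17 of the 24 leave-outs, with A5DA and B4B9 among them (adjusted p = 0.0724, 0.0953 and 0.120 without A5DA and 0.168, 0.105 and 0.186 without B4B9).

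Genes that interferons raise commonly carry short motifs in their promoters, among them those that the interferon regulatory factors bind. Windows of 300 bases around the RefSeq gene start (GRCm38.p6) were searched on both strands for the interferon gamma-activated site, TTCNNNGAA, the core of the interferon-stimulated response element, GAAANNGAA, and the E-box, CACGTG. Promoters were found for 35 of the 54 higher genes and 38 of the 55 lower genes. Counted by gene, 7 of the 35 held TTCNNNGAA and 8 held GAAANNGAA, against 8.41% and 8.94% of 11616 tested genes with a promoter. Of all 32841 single promoters, 8.3% and 8.56% held them. Among the 38 lower genes the numbers were 4 and 7. CACGTG was found for 2 of 35 higher and 1 of 38 lower genes, against 11.4% of the tested genes and 7.15% of all single promoters. The 150 bases directly before the start are shown for 4 called genes of interferon response or antigen presentation that hold a match, and for the clock gene Cry1 with its E-box, each 5′ to 3′ on the strand of its gene with the matches in capitals.
Gbp2 (chr3:142620513-142620662, plus strand): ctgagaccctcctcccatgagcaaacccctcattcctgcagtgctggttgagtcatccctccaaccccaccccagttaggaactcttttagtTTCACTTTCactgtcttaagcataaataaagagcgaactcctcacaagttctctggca
Igtp (chr11:58199406-58199555, plus strand): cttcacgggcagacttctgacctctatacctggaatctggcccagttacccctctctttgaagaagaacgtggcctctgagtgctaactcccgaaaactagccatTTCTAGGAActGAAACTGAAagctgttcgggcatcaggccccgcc
Tgtp1 (chr11:48992247-48992396, minus strand): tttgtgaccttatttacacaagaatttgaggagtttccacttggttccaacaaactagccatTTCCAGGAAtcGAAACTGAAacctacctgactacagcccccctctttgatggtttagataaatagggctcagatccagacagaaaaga
B2m (chr2:122147537-122147686, plus strand): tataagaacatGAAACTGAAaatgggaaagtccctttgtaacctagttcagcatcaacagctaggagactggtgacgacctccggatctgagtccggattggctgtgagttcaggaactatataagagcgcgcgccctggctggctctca
Cry1 (chr10:85185055-85185204, minus strand): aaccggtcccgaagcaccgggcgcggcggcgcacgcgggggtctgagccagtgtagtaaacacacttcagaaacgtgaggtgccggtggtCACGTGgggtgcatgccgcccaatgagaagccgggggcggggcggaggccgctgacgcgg
Igtp and Tgtp1 both hold TTCNNNGAA followed within a few bases by GAAANNGAA, the first beginning 45 bases before the start in Igtp and 88 bases before it in Tgtp1. The single matches begin 58 bases before the start in Gbp2, where the motif lies on the opposite strand, near the far end of the window in B2m and 60 bases before it in Cry1. All these starts are those of RefSeq, and they differ from the gene positions given here for Gbp2, Tgtp1 and Cry1, which are from GENCODE. By those positions the Tgtp1 window lies inside its gene, and the Gbp2 and Cry1 windows lie partly inside theirs. A match is a string of letters and not a measured binding site, since no binding was assayed in these libraries.

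Of the genes of antigen presentation, 5 of 11 tested in class II and 3 of 16 in class I were called higher and none lower. Of all genes tested, 0.337% were called higher. Class II molecules present peptides taken up from outside the cell, and H2-DMa, H2-DMb1 and H2-DMb2 encode the chains that load them. H2-DMb1 (chromosome 17, 34153072 to 34160230, plus strand) had 12.9 to 24.6 CPM at time zero (median 16.3), 34.1 to 126.1 CPM after TLS (median 48.6) and 17.2 to 41.1 CPM in controls (median 23.2). Every TLS library lay above every time-zero library, and A5DA and B4B9 were again the highest. Its log2 fold change was 1.76 ± 0.245 (adjusted p = 0.000492) against time zero and 1.22 (adjusted p = 0.0253) against control, with 0.54 (adjusted p = 0.406) for control against time zero. It stayed called in all 24 leave-outs, at 1.51 without A5DA and 1.31 without A5DA and B4B9. H2-DMb2 rose by 3.08 ± 0.594 (adjusted p = 0.0155) and differed from control by 2.77 (adjusted p = 0.0428). H2-DMa rose by 1.77 ± 0.349 (adjusted p = 0.0168), H2-Ab1, a beta chain of the class II molecule, by 1.495 ± 0.322 (adjusted p = 0.0263), and Cd74, the invariant chain, by 1.53 ± 0.337 (adjusted p = 0.0309). Without B4B9, H2-DMb2 and H2-DMa had an adjusted p of 0.0523 each, and H2-Ab1 and Cd74 lost their calls in 7 leave-outs (B4B9 and time-zero animals 1, 2, 3, 6, 7 and 8), at an adjusted p of up to 0.083 and 0.0856.

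All 11 tested class II genes had fold changes above 0, 5 of them called (0.337% of all genes were called higher), with a median of 1.49 against 0.0129 over all genes. The median was 0.59 in controls, 0.96 without A5DA with 5 called, 1.32 without B4B9 with 1 called, and 0.40 without both with 3 called. With the nuclear RNA share in the model it was 0.71 with 2 called, H2-DMb1 (adjusted p = 0.000542) and H2-DMb2 (adjusted p = 0.0447), while H2-DMa, Cd74 and H2-Ab1 had an adjusted p of 0.0606, 0.108 and 0.115. Their summed level was 403.2 to 900.2 CPM at time zero, 742.9 to 5754 CPM after TLS and 657.5 to 1619 CPM in controls. In class I, which presents peptides from inside the cell, 3 of 16 tested genes were called and all 16 were above 0, with a median of 0.92, of 0.24 in controls, of 0.55 without A5DA (2 called), of 0.73 without B4B9 (0 called) of 0.28 without both (1 called) and of 0.385 with the nuclear RNA share in the model (0 called; adjusted p = 0.126 for B2m, 0.166 for H2-K1 and 0.315 for Nlrc5). H2-K1, a class I heavy chain, had 209 to 295 CPM at time zero (median 259) and 314 to 1146 CPM after TLS (median 366), with no overlap, and a log2 fold change of 0.997 ± 0.222 (adjusted p = 0.0315). B2m, the light chain shared by class I molecules, had 152 to 216 CPM at time zero (median 200) and 211 to 728 CPM after TLS (median 298). Only its lowest TLS library fell within the time-zero range, and its log2 fold change was 0.95 ± 0.202 (adjusted p = 0.0249). Nlrc5, the activator of class I transcription, rose by 1.78 ± 0.421 (adjusted p = 0.0454), in 7 of 8 TLS animals relative to the time-zero mean of their sex. H2-K1 lost its call in 7 leave-outs, B2m in 6 and Nlrc5 in 17, and for Nlrc5 these included A5DA (adjusted p = 0.118) and B4B9 (adjusted p = 0.145). For H2-K1 and B2m they were B4B9 (adjusted p = 0.0995 and 0.0773) and time-zero animals 1, 2, 3, 6 and 7, with animal 8 for H2-K1.

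**Figure D2:**
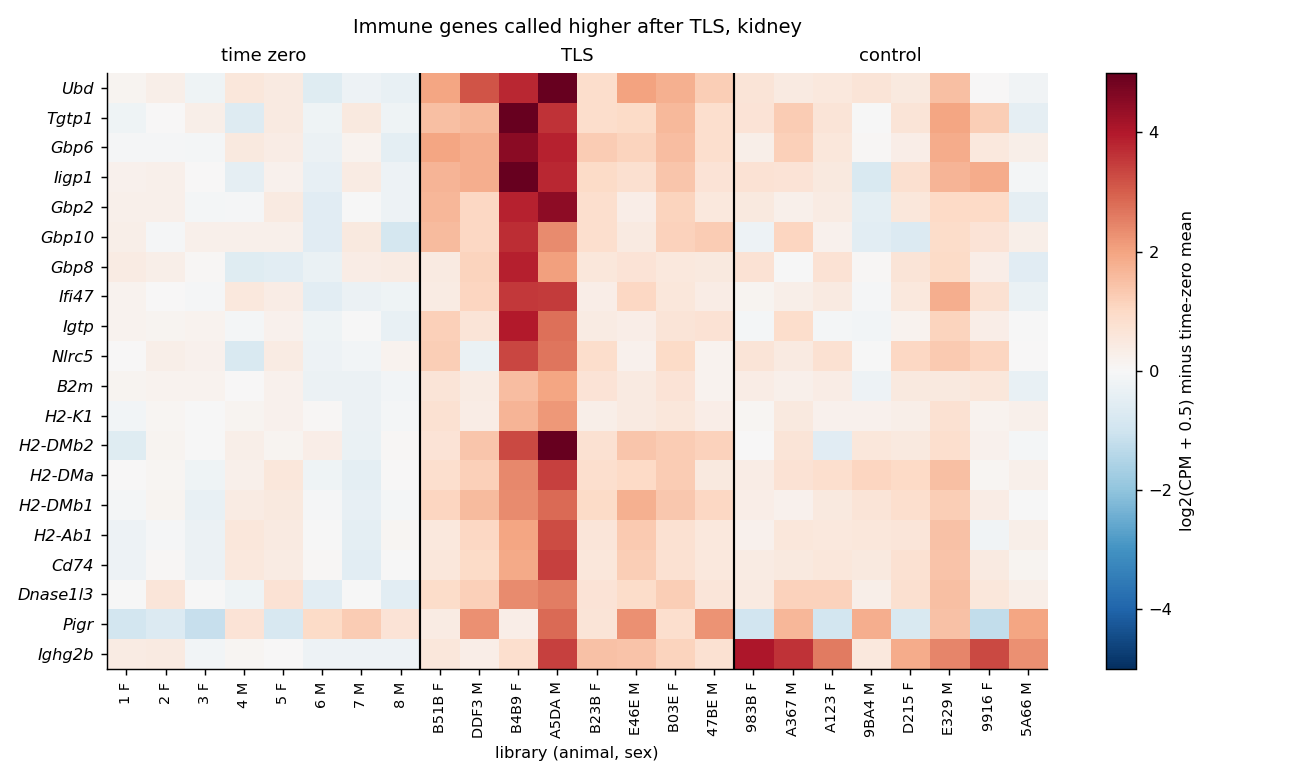
Rows are 20 immune genes called higher after TLS and columns the 24 kidney libraries by group, animal and sex. Colour is log2(CPM + 0.5) minus the time-zero mean of the gene, red for higher. A5DA and B4B9 are the darkest TLS columns for most genes, the other 6 TLS columns are paler red, and Ighg2b is darkest in controls.

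Summed markers of immune cells were highest in A5DA, while single lymphocyte genes were high in B4B9 too. Cd8b1 had 95 counts in B4B9, 90 in A5DA and 5 to 15 in the other TLS libraries. None of 20 tested macrophage and dendritic cell genes, 17 lymphocyte genes or 6 neutrophil genes was called, against 0.681% of all genes, with median log2 fold changes of 1.07, 0.93 and 3.05. Without A5DA these medians were 0.36, 0.15 and 0.70, and without B4B9 1.01, 0.875 and 3.27. With the nuclear RNA share in the model they were 0.287, -0.0461 and 0.471. The summed level of the macrophage list, over all its members tested or not, was 150.3 to 287.6 CPM at time zero, 172.7 to 1527 CPM after TLS and 178.2 to 439.1 CPM in controls. For lymphocytes the sums were 12.1 to 23.54, 9.266 to 120.1 and 13.35 to 38.12 CPM, and for neutrophils 1.772 to 8.644, 2.745 to 427.3 and 2.731 to 10.54 CPM, with the TLS maximum in A5DA for all 3 lists. The part of these cells in the rise of interferon and antigen presentation genes was not tested. Dnase1l3, a secreted nuclease of myeloid and endothelial cells, was called, with 0.522 to 1.88 CPM at time zero (median 0.937) and 1.74 to 8.04 CPM after TLS (median 2.55). Its ranges overlapped only at their ends, and its log2 fold change was 1.82 ± 0.356 (adjusted p = 0.0155, and 0.0523 without B4B9). Its adjusted p was 0.0686 with the nuclear RNA share in the model.

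Pigr encodes the receptor that carries dimeric immunoglobulin A across epithelia into the lumen (chromosome 1, 130826684 to 130852249, plus strand). It had 31.2 to 172 CPM at time zero (median 77.8), 88.6 to 512 CPM after TLS (median 233) and 29.9 to 281 CPM in controls (median 120). The pooled ranges overlap, M animals have more Pigr than F animals in every group, and 8 of 8 TLS libraries lay above the time-zero mean of their sex. Its log2 fold change was 1.49 ± 0.155 (adjusted p = 4.52e-06) against time zero and 1.08 (adjusted p = 0.000849) against control, with 0.41 (adjusted p = 0.297) for control against time zero. It stayed called in all 24 leave-outs and was 1.43 without A5DA and 1.45 without A5DA and B4B9.

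Immunoglobulin genes themselves followed another order of groups. Igha, the heavy chain of immunoglobulin A, had 3.77 to 17.7 CPM at time zero (median 10.1), 4.85 to 14.1 CPM after TLS (median 9.01) and 28.7 to 69.9 CPM in controls (median 33.4). Controls lay wholly above both other groups, which overlapped throughout. The log2 difference was -0.02 ± 0.249 (adjusted p = 0.982) for TLS against time zero, 2.003 (adjusted p = 0.000203) for control against time zero and -2.02 (adjusted p = 0.000106) for TLS against control. Ighg2b had 0 to 0.307 CPM at time zero, 0.251 to 5.90 CPM after TLS and 0.365 to 9.48 CPM in controls, and its fitted log2 fold change of 3.497 ± 0.804 (adjusted p = 0.0391) rests on time-zero libraries with at most 6 counts. It lost its call in 11 leave-outs, A5DA among them (adjusted p = 0.0544), along with B4B9, B23B and each time-zero animal. Adding the nuclear RNA share to the model gave Ighg2b an adjusted p of 0.161. Of 12 tested genes on the list for antibody-producing cells and immunoglobulin, 2 were called higher, against 0.337% of all genes. They were Ighg2b and Pigr, and Pigr is the epithelial receptor described above, not a gene of antibody-producing cells. The list's median of 0.52 compares with 1.84 for control against time zero.

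A group of non-immune genes separated TLS from both other groups. Gpc3 encodes glypican 3, which carries heparan sulphate chains on cell membranes and binds hedgehog and Wnt ligands (chromosome X, 52272426 to 52613950, minus strand). It had 17.7 to 25.9 CPM at time zero (median 21.6), 45.6 to 82.1 CPM after TLS (median 54.3) and 24.6 to 33.5 CPM in controls (median 29.0). All 8 TLS libraries lay above all 16 others. The log2 fold change was 1.37 ± 0.111 (adjusted p = 4.08e-08) against time zero, the smallest adjusted p of those described here, and 0.96 (adjusted p = 3.12e-05) against control, and control differed from time zero by 0.42 (adjusted p = 0.115). It was called in all 37 alternative fits. Without A5DA, its highest library, the value was 1.26.

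Gfra1, the receptor subunit for glial cell line-derived neurotrophic factor (chromosome 19, 58235604 to 58455909, minus strand), moved the other way. It had 4.02 to 8.18 CPM at time zero (median 6.54), 1.16 to 3.74 CPM after TLS (median 2.44) and 4.62 to 16.1 CPM in controls (median 8.14). All TLS libraries lay below all others. It fell by 1.47 on the log2 scale (SE 0.185, adjusted p = 0.000121) against time zero and by 1.83 (adjusted p = 4.75e-06) against control, and control differed from time zero by 0.37 (adjusted p = 0.442). Ace encodes angiotensin-converting enzyme, which in the kidney sits mainly on the brush border of the proximal tubule (chromosome 11, 105967945 to 105989964, plus strand). It had 264 to 378 CPM at time zero (median 308), 96.2 to 280 CPM after TLS (median 169) and 242 to 393 CPM in controls (median 344). A single TLS library, that of 47BE, reached into the other ranges. Ace fell by 0.87 (SE 0.146, adjusted p = 0.00409) against time zero and by 0.96 (adjusted p = 0.00158) against control, while control against time zero was 0.09 (adjusted p = 0.870). It was the only called gene of 14 tested in the renin-angiotensin-aldosterone system, whose median was -0.22, and 0.681% of all genes were called. Renin itself, Ren1, had a log2 difference of 0.41 ± 0.192 (adjusted p = 0.315).

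**Figure D3:**
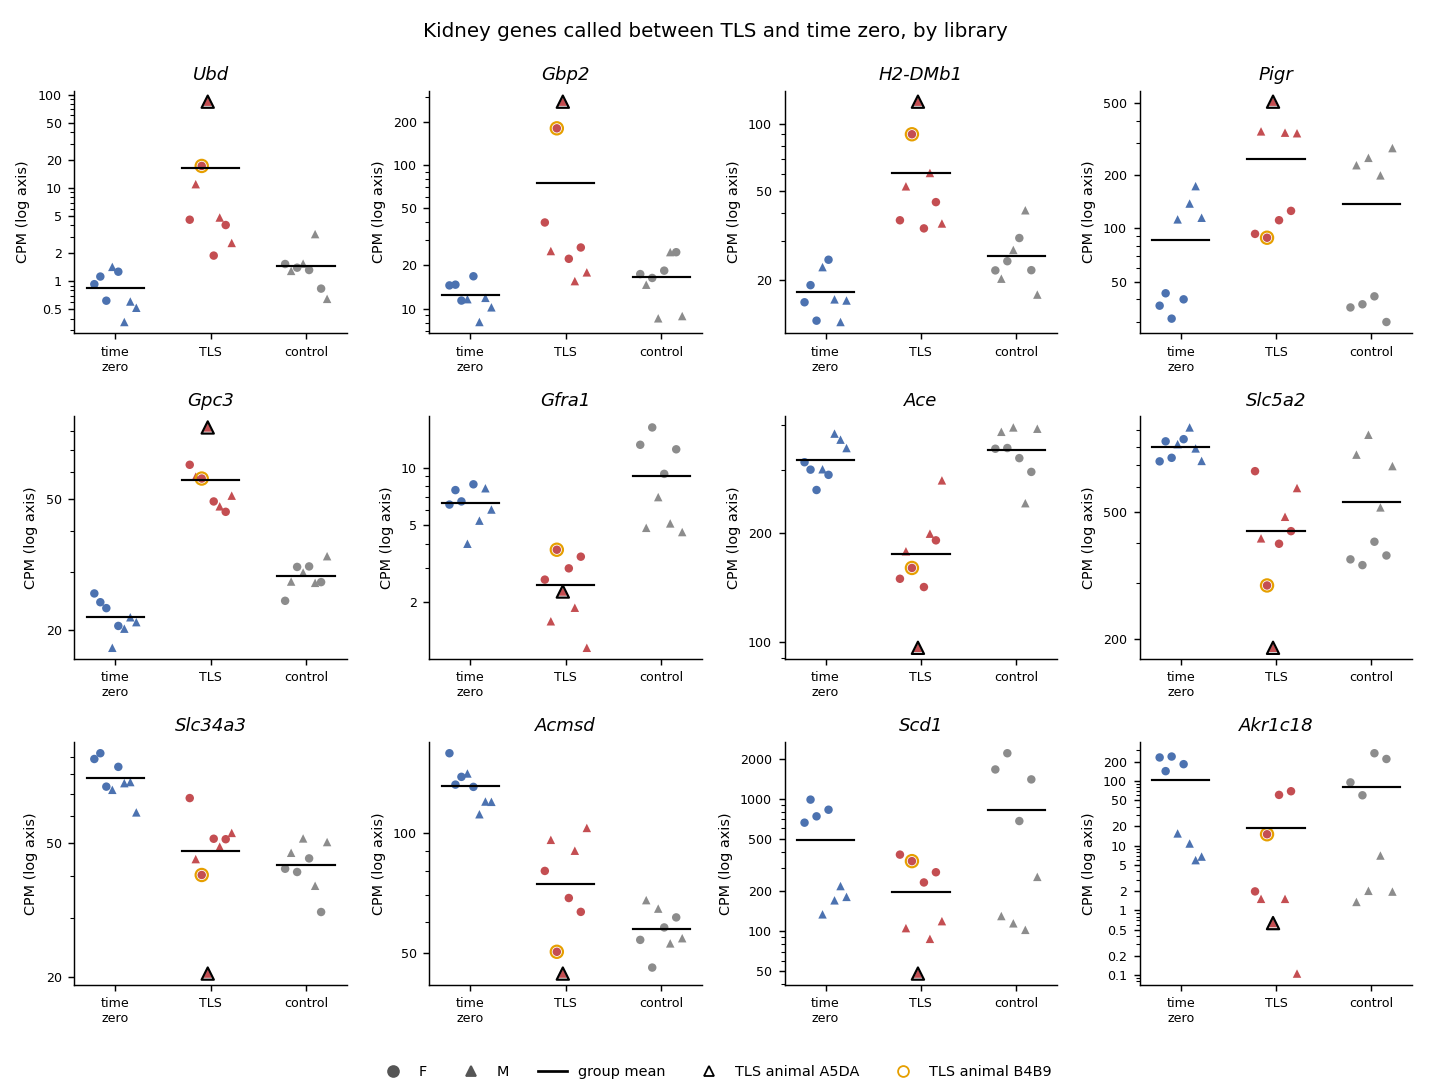
Each panel is 1 gene called between TLS and time zero, with CPM on a log axis, 1 point per animal (circles F, triangles M) and a bar at the group mean. A5DA is ringed in black and B4B9 in orange. Gpc3 and Gfra1 separate TLS from both other groups, Ace nearly so, whereas for Slc34a3 and Acmsd all controls lie below time zero, as most TLS libraries do, and for Slc5a2 the controls spread over both ranges.

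Several genes of solute transport in the proximal tubule fell after TLS, and their values in controls lay on the same side of time zero. Slc5a2 encodes SGLT2, which reclaims most of the filtered glucose (chromosome 7, 128265657 to 128272430, plus strand). It had 720 to 920 CPM at time zero (median 803), 187 to 671 CPM after TLS (median 424) and 340 to 872 CPM in controls (median 460). TLS and time zero did not overlap, and A5DA had the lowest level. The log2 fold change was -0.87 ± 0.208 (adjusted p = 0.0454), with -0.61 (adjusted p = 0.235) for control against time zero and -0.26 for TLS against control. That call was lost in 16 of 24 leave-outs (adjusted p up to 0.105, without B4B9) and held in 13 of 37 alternatives. Slc7a8, an amino acid exchanger, fell by 0.92 (SE 0.213, adjusted p = 0.0394), and Slc22a7, the organic anion transporter OAT2, by 0.76 (SE 0.178, adjusted p = 0.041). These calls were lost in 11 and 13 leave-outs, B4B9 included. Slc34a3, the sodium-phosphate cotransporter NaPi-IIc, had 61.7 to 92.4 CPM at time zero (median 75.6), 20.5 to 68 CPM after TLS (median 50.05) and 31.2 to 51.6 CPM in controls (median 43.5). Controls lay wholly below time zero and a single TLS library overlapped with it. It fell by 0.72 (SE 0.153, adjusted p = 0.024) after TLS and by 0.84 (adjusted p = 0.0134) in controls, and the first call was lost without B4B9 or time-zero animals 1 or 2 (adjusted p up to 0.0595). Slc5a2, Slc7a8, Slc22a7 and Slc34a3 were also not called with the nuclear RNA share in the model. Their adjusted p was then 0.116, 0.117, 0.0858 and 0.0539.

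Of 18 tested genes of the early and middle proximal tubule, 2 were called lower and none higher, against 0.344% of all genes called lower. The median was -0.48 after TLS, -0.45 in controls and -0.39 without A5DA. It was -0.245 with 0 called when the nuclear RNA share was in the model. The summed level of that list was 16370 to 20240 CPM at time zero, 7166 to 22200 CPM after TLS and 10020 to 22590 CPM in controls, with the TLS maximum in 47BE. Gatm, the first enzyme of creatine synthesis, had a log2 difference of -0.76 ± 0.200 (adjusted p = 0.0706). The list for calcium, phosphate and vitamin D had 1 called gene of 19, Slc34a3, and a median of -0.40 (controls -0.33). The list for organic anion and cation transport had 1 of 21, Slc22a7, and a median of -0.16. Markers of the last proximal segment had a median of -0.09 with 1 of 11 called, again Slc22a7, and a median of 0.0203 without A5DA, on the other side of 0. The list for renal glucose production had 1 called gene of 16 (median -0.12). It was Slc5a2, which reclaims glucose and does not make it. The klotho gene Kl, which encodes the co-receptor for fibroblast growth factor 23, had a difference of -0.71 ± 0.292 (adjusted p = 0.256).

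Intercalated cells, which secrete acid or bicarbonate in the collecting duct, had 3 of 15 tested markers called lower, and 0.681% of all genes were called. Slc26a4, the chloride-bicarbonate exchanger pendrin of the bicarbonate-secreting type, had 36.7 to 84.3 CPM at time zero (median 67.1) and 22.2 to 44.3 CPM after TLS (median 33.6). The highest TLS libraries overlapped with the lowest time-zero library only, and it fell by 0.92 (SE 0.192, adjusted p = 0.022), with -0.51 in controls. Insrr, an alkali-sensing receptor of the insulin receptor family, had 27.4 to 58.96 CPM at time zero (median 44.1) and 13.9 to 36.3 CPM after TLS (median 23.5). It fell by 0.79 (SE 0.180, adjusted p = 0.034). Hmx2, a homeobox factor, had 7.90 to 12.1 CPM at time zero (median 10.6) and 3.13 to 7.08 CPM after TLS (median 4.31), with no overlap. It fell by 1.15 (SE 0.201, adjusted p = 0.0054) and stayed called in all leave-outs, whereas Slc26a4 lost its call without B4B9 or time-zero animals 1 or 2 (adjusted p up to 0.054) and Insrr in 8 leave-outs (adjusted p up to 0.0823). Foxi1, the factor that specifies intercalated cells, had a difference of -0.0047 (adjusted p = 0.994), and Slc4a1, the exchanger of the acid-secreting type, of -0.03 (adjusted p = 0.953). When the nuclear RNA share was in the model, the adjusted p was 0.018 for Hmx2, 0.0858 for Slc26a4 and 0.116 for Insrr. The list median was -0.25, against -0.28 in controls. In the list for ammonia production and acid excretion 2 of 16 were called lower, Slc26a4 and Slc7a8, both named above, and none of the 16 values was above 0 (median -0.27). By the roles given above, Slc26a4 serves bicarbonate secretion and Slc7a8 amino acid exchange.

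The other nephron segments had 0 or 1 called gene each, and 0.681% of all genes were called. At that share, lists this short would often hold no call, so 0 called does not describe a segment. None of 14 thick ascending limb genes was called, with a median of 0.08, and Umod, the uromodulin gene of that segment, had 2418 to 4440 CPM at time zero (median 3193) and 2479 to 4705 CPM after TLS (median 3361). Its log2 difference was 0.00 ± 0.112 (adjusted p = 0.994). In the distal convoluted and connecting tubule 1 of 13 was called, Cnnm2, a basolateral magnesium protein, which fell by 0.51 (SE 0.108, adjusted p = 0.024, and 0.0523 without B4B9). Kcne1, a potassium channel subunit, was the only one of 14 principal cell genes called (list median -0.17) and fell by 0.75 (SE 0.174, adjusted p = 0.0401). Cnnm2 and Kcne1 had an adjusted p of 0.0631 and 0.0858 with the nuclear RNA share in the model. Aqp2, the vasopressin-regulated water channel of principal cells, had 284 to 450 CPM at time zero (median 338) and 226 to 700 CPM after TLS (median 367.1), a difference of 0.08 ± 0.172 (adjusted p = 0.847). In the glomerulus, 1 of 15 tested genes of podocytes, the cells of the filtration slit, was called lower. The list median was -0.33 (controls -0.09). The number called lower stayed at 1 without A5DA, without B4B9, without both and with the nuclear RNA share in the model. Nephrin, Nphs1, was not called, with -0.56 (adjusted p = 0.0927).

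**Figure D4:**
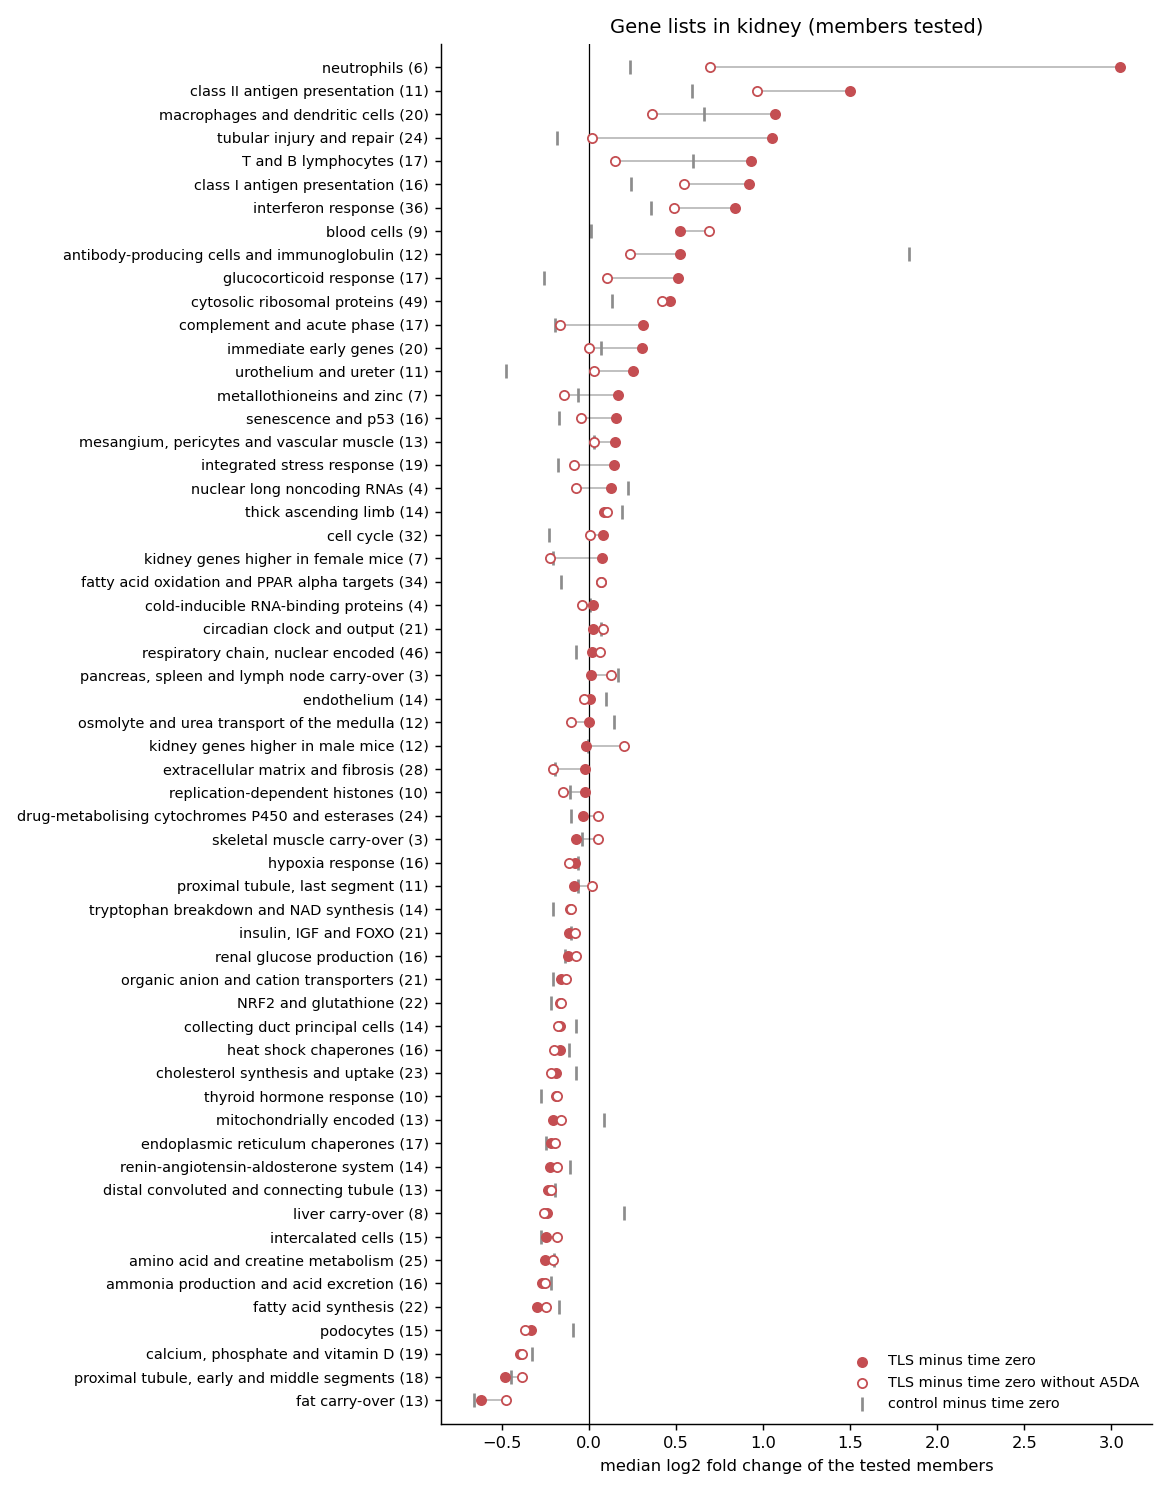
Each row is a gene list with the number of its tested members. The horizontal axis is the median log2 fold change of those members, for TLS against time zero (filled red), for the same without A5DA (open red) and for control against time zero (grey tick). Neutrophil and injury lists move furthest left without A5DA, and proximal tubule, calcium and phosphate, and podocyte lists are among the lowest for TLS.

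In lipid synthesis, a desaturase fell. Scd1, the desaturase that makes oleate, had 134.3 to 986 CPM at time zero (median 440), 48.0 to 379 CPM after TLS (median 176) and 102.6 to 2206 CPM in controls (median 468). The ranges overlapped, F animals had more Scd1, and 0 of 8 TLS libraries lay above the time-zero mean of their sex. Scd1 fell by 1.15 (SE 0.269, adjusted p = 0.0414) against time zero and by 1.54 (adjusted p = 0.0113) against control, and the first call was lost in 14 leave-outs, A5DA (adjusted p = 0.061) and B4B9 (adjusted p = 0.0911) among them. That call was also lost with the nuclear RNA share in the model (adjusted p = 0.116). Scd1 was the only called gene of 22 of fatty acid synthesis (median -0.30, controls -0.17), and 0.681% of all genes were called. Among 13 markers of fat tissue that may be carried over with a kidney, none was called, and the median was -0.62 after TLS and -0.66 in controls. Their summed level was 516.3 to 838.3 CPM at time zero and 409.5 to 685.8 CPM after TLS, and its part in the fall of Scd1 was not tested. On the side of fat use, none of 34 tested genes of fatty acid oxidation and PPAR alpha targets was called (median 0.07). At the share of all genes called, these counts of 0 and 1 do not set fat use apart from synthesis. Slc25a20, the carnitine carrier that brings acyl chains into mitochondria, had 63.03 to 89.9 CPM at time zero (median 67.01) and 79.5 to 142.5 CPM after TLS (median 93.9), a difference of 0.51 ± 0.125 (adjusted p = 0.052, and 0.0373 without A5DA).

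The largest fall among genes above the level floor was that of Akr1c18, a hydroxysteroid dehydrogenase that inactivates progesterone (chromosome 13, 4132615 to 4150654, minus strand). It had 5.98 to 239 CPM at time zero (median 78.7), 0.105 to 69.5 CPM after TLS (median 1.74) and 1.35 to 269 CPM in controls (median 33.6). F animals were higher in every group, with 198 ± 45.3 CPM in the 4 time-zero F libraries (SD) and 5.98 to 15.47 CPM in the 4 M libraries. Akr1c18 fell by 2.86 (SE 0.556, adjusted p = 0.0168), with -1.94 (adjusted p = 0.209) against control and -0.92 (adjusted p = 0.520) for control against time zero. The gene is also active in the adrenal cortex. Of 14 adrenal markers only Star and Fdx1 had enough counts to be tested. The sum over all 14 was 53.98 to 286.4 CPM at time zero, with the maximum in animal 3, and 50.2 to 145.7 CPM after TLS. Outside time-zero animal 3 this sum was largely Fdx1, with 893 to 1689 counts at time zero and 733 to 3173 after TLS. Star had at most 26 counts in the other time-zero libraries and 10 to 34 after TLS. How far the sum reflects adrenal RNA was not tested. Akr1c18 stayed called in all leave-outs, that of time-zero animal 3 included, at an adjusted p of up to 0.0498.

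Further called falls were of genes with diverse roles. Sec14l3, a lipid-binding protein, fell by 1.30 (SE 0.268, adjusted p = 0.022), and Igf2bp1, a fetal RNA-binding protein, by 1.31 (SE 0.280, adjusted p = 0.0249) against time zero and by 1.34 (adjusted p = 0.037) against control. Chrdl1, a secreted antagonist of bone morphogenetic proteins, fell by 1.21 (SE 0.273, adjusted p = 0.0334) and by 1.39 (adjusted p = 0.0253) against control. Syt7, a calcium sensor of exocytosis, had 4.29 to 13.1 CPM at time zero (median 9.22) and 2.46 to 6.78 CPM after TLS (median 4.12). It fell by 1.09 (SE 0.180, adjusted p = 0.00378) and stayed called in all leave-outs. Cdh4, a cadherin, fell by 1.10 (SE 0.238, adjusted p = 0.0263) and Dlg2, a scaffold protein, by 1.02 (SE 0.243, adjusted p = 0.0454). Fn1, fibronectin of the extracellular matrix, fell by 0.75 (SE 0.159, adjusted p = 0.0248). It was the only one called of 28 matrix and fibrosis genes, whose median was -0.02, against 0.681% of all genes called. Collagen gene Col1a1 had a difference of 0.18 ± 0.280 (adjusted p = 0.772). Hspa4l, a chaperone of the Hsp110 family that responds to osmotic stress, fell by 0.58 (SE 0.132, adjusted p = 0.0362). Leaving out 1 library ended the call of Igf2bp1, Sec14l3 and Fn1 in 3 cases each, of Cdh4 in 2, of Chrdl1 in 7, of Kcne1 in 9, of Hspa4l in 10 and of Dlg2 in 19, with B4B9 among them for all but Igf2bp1. The highest adjusted p among these was 0.107, for Dlg2. Syt7, Cdh4 and Igf2bp1 stayed called with the nuclear RNA share in the model (adjusted p = 0.0134, 0.0322 and 0.0465). In that fit the adjusted p was 0.0759 for Fn1, 0.0942 for Sec14l3, 0.103 for Chrdl1, 0.116 for Dlg2 and 0.125 for Hspa4l.

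A pair of enzymes that set the fate of tryptophan carbon and NAD changed in opposite directions. Acmsd diverts a tryptophan intermediate away from NAD synthesis (chromosome 1, 127729413 to 127767978, plus strand), and it had 111.1 to 158 CPM at time zero (median 130.8), 44.5 to 102.7 CPM after TLS (median 74.5) and 46.1 to 67.8 CPM in controls (median 56.3). Both older groups lay wholly below time zero. It fell by 0.82 (SE 0.139, adjusted p = 0.00419) after TLS and by 1.195 (adjusted p = 9.07e-05) in controls, and TLS differed from control by 0.37 (adjusted p = 0.411). Nampt, the rate-limiting enzyme of NAD salvage and a gene with a daily rhythm, had 97.4 to 122.5 CPM at time zero (median 107.1), 97.4 to 195 CPM after TLS (median 160) and 123.7 to 209 CPM in controls (median 162). It rose by 0.53 (SE 0.119, adjusted p = 0.0317) after TLS, in 7 of 8 animals, and by 0.57 (adjusted p = 0.035) in controls. A5DA was the TLS animal at the time-zero level, and without it the rise was 0.60 (adjusted p = 0.00267), while without B4B9 the adjusted p was 0.0823. These were the only called genes of 14 in the list for tryptophan breakdown and NAD synthesis (median -0.11), and 0.681% of all genes were called.

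Of 21 tested genes of the circadian clock and its output, 2 were called higher and 1 lower after TLS, against 0.681% of all genes called. The list median was 0.02, and Cry1 and Nr1d1 among those called also differed from time zero in controls. Cry1, a repressor of the clock (chromosome 10, 85131700 to 85185064, minus strand), had 1.75 to 4.51 CPM at time zero (median 2.34), 4.13 to 12.6 CPM after TLS (median 8.93) and 7.20 to 14.4 CPM in controls (median 9.59). Only A5DA, at the low end of TLS, overlapped with time zero. Cry1 rose by 1.63 (SE 0.233, adjusted p = 0.000556) after TLS and by 1.75 (adjusted p = 0.000337) in controls, with -0.12 between them (adjusted p = 0.896). Nr1d1, the repressor REV-ERB alpha (chromosome 11, 98767932 to 98775333, minus strand), had 55.5 to 126.6 CPM at time zero (median 96.7), 18.5 to 66.9 CPM after TLS (median 36.7) and 11.1 to 84.2 CPM in controls (median 53.1). It fell by 1.41 (SE 0.257, adjusted p = 0.00825) and by 1.25 (adjusted p = 0.035), with a difference of -0.16 (adjusted p = 0.879) between TLS and control.

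Cry1 and Nr1d1 stayed called in every leave-out. Dbp, an output factor, had 168 to 258 CPM at time zero (median 211) and 32.5 to 205 CPM after TLS (median 129.3), a difference of -0.91 ± 0.281 (adjusted p = 0.13). Per2 had 14.5 to 45.2 CPM at time zero and 5.40 to 54.7 CPM after TLS (0.48 ± 0.291, adjusted p = 0.432). Arntl, which encodes the activator BMAL1, had 0.886 to 3.27 CPM and 0.974 to 5.63 CPM (0.19 ± 0.455, adjusted p = 0.863). The hour of collection was not given, so hour, age and TLS cannot be told apart for these genes.

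**Figure D5:**
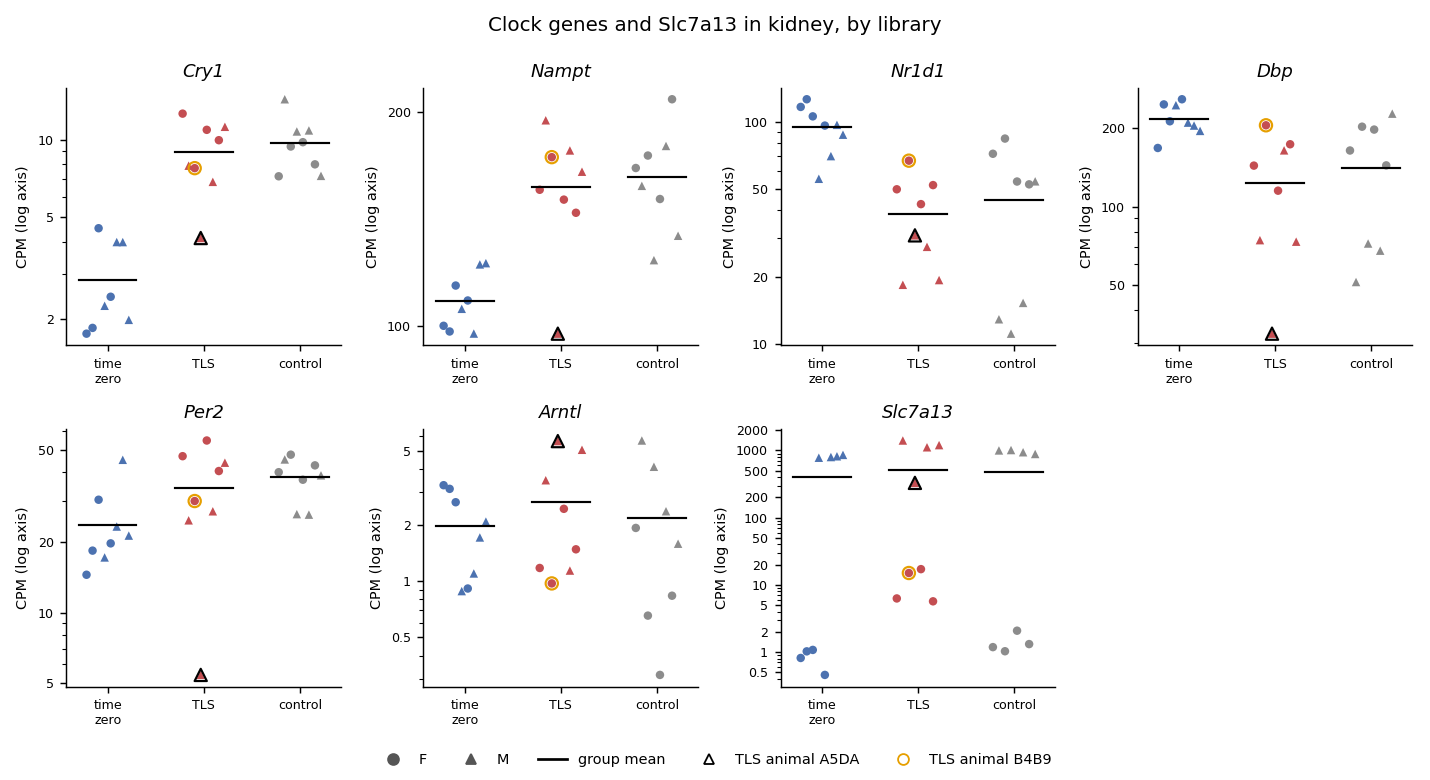
Each panel is 1 gene, with CPM on a log axis, 1 point per animal (circles F, triangles M) and a bar at the group mean. For Cry1 and Nampt the TLS and control libraries lie above time zero except A5DA, ringed in black. In the last panel, Slc7a13 is at 5.69 CPM or more in F animals after TLS and at 2.08 CPM or less in the other F animals.

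None of the following genes commonly looked for in cold or stressed tissue was called, against 0.681% of all genes. At that share, lists this short would often hold no call. The cold-inducible RNA-binding proteins had a list median of 0.02 over 4 tested genes, and of -0.0397 without A5DA. Cirbp had 35.3 to 51.7 CPM at time zero (median 46.5) and 35.5 to 81.2 CPM after TLS (median 43.2), with a difference of 0.08 ± 0.146 (adjusted p = 0.807). Rbm3 had a median of 42.5 CPM at time zero and of 48.1 CPM after TLS (0.35 ± 0.168, adjusted p = 0.323), with 0.64 (adjusted p = 0.115) in controls. None of 24 tested injury and repair genes was called, although 22 were above 0 with a median of 1.05. That median was 0.01 without A5DA, -0.125 without A5DA and B4B9 and -0.196 with the nuclear RNA share in the model. Havcr1 had 0.307 to 4.97 CPM at time zero (median 1.26) and 0.589 to 257 CPM after TLS (median 2.50), and its difference of 3.63 ± 1.003 (adjusted p = 0.0927) became 0.98 (adjusted p = 0.309) without A5DA. Lcn2, a secreted marker of tubular injury, went from 3.75 ± 1.37 (adjusted p = 0.209) to -0.29 without that library. Cdkn1a, the cell cycle inhibitor p21, had 3.15 to 8.30 CPM at time zero and 6.02 to 94.6 CPM after TLS (1.51 ± 0.487, adjusted p = 0.144), and Cdkn2a had too few counts to be tested. Pck1, of glucose production, had -0.42 ± 0.253 (adjusted p = 0.423).

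The response to TLS was tested for a difference between F and M animals. Over 16005 genes 1 was called (0.00625%), Slc7a13, an amino acid carrier of the last proximal segment that is far higher in male mice (chromosome 4, 19818725 to 19842218, plus strand). In F animals it had 0.457, 0.817, 1.02 and 1.08 CPM at time zero, 5.69, 6.28, 15.0 and 17.1 CPM after TLS and 1.03 to 2.08 CPM in controls. All 4 TLS F libraries lay above all 8 other F libraries. In M animals it had 780 to 860 CPM at time zero, 330 CPM in A5DA and 1116, 1202 and 1408 CPM in the other 3 after TLS, and 887 to 1015 CPM in controls. The log2 fold change was 3.69 ± 0.421 in F animals and 0.32 ± 0.335 in M animals, and the difference, M minus F, was -3.38 ± 0.534 (adjusted p = 0.0281). It ran from -3.59 to -3.07 when 1 TLS or time-zero library was left out, but the call was lost in 11 of these 16 cases (each time-zero animal, B4B9, B23B and E46E, adjusted p up to 0.165). It was also lost with voom (adjusted p = 0.0663), without a low-count filter (adjusted p = 0.208) and with only the 2 groups in the fit (adjusted p = 0.358). Timd2, a ferritin receptor, was called over both sexes, with 1.02 in F and 0.49 in M animals and 0.72 ± 0.152 (adjusted p = 0.024) over both, and was lost without B4B9 or time-zero animals 1, 2 or 7 (adjusted p up to 0.0588). Adding the nuclear RNA share to the model gave Timd2 an adjusted p of 0.0882.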

How the data were processed

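Poly(A) libraries of 24 kidneys (NEBNext Ultra II, Illumina NovaSeq) were aligned by the authors with STAR 2.7.10 to mm10/GRCm38, per the submitters' processing notes. The values are the authors' deposited raw counts per gene for 55401 genes, and the header line of the table calls them corrected without saying how. The annotation and strand setting of the counting are not given in the sources used here.

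Counts were analysed in R 4.3.3 with edgeR 4.0.16 (filterByExpr with a minimum count of 10, TMM, robust quasi-likelihood fit of group and sex over all 24 libraries, Benjamini-Hochberg adjustment, threshold 0.05). A call means an adjusted p below 0.05, and SE is the fold change divided by the root of its F. CPM values are TMM-scaled. The difference between sexes was tested in a model of 6 group-by-sex means. DESeq2 1.42.0 and limma 3.58.1 gave alternative fits. Adjusted p-values that DESeq2 gave as missing stayed missing. The scripts were checked on simulated counts. Every library came from a different animal, and no 2 of 84 library pairs were identical.

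The genes named were the 12 largest rises and 12 largest falls above a mean log2 CPM of 0 (genes without a given name were counted but not named), up to 4 called members of each list, and markers of kidney, torpor and clock. Other called genes (Cd74, Gbp5) were named after their values were seen. Some genes that this rule names are not reported here. The comparison, gene lists (1068 symbols in 59 lists, 982 tested) and genes were chosen with earlier results of these data known. Gene positions are from GENCODE M21 and promoters from RefSeq.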

Additional observations from a re-analysis of the deposited data

Results flagged for a closer look

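Of 260 groups of 8 values examined (named genes and list scores in TLS and in time-zero libraries), 24 had an extreme library whose gap to its nearest neighbour exceeded Dixon's 95% critical share of the group's range, and chance gives about 1 in 20 such groups. A5DA was the extreme library in 18 of them. A list score is the mean over its members of log2 CPM minus the time-zero mean.

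In A5DA, CPM values were high for Havcr1 (257, next 5.43), Lcn2 (962, next 11.1), S100a9 (143.6, next 2.28), Cdkn1a (94.6, next 10.8) and Ighg2b (5.90, next 1.15). They were low for Nampt (97.4, next 144.3), Per2 (5.40, next 24.9), Slc34a3 (20.5, next 40.2), Gatm (85.5, next 228) and Dlg2 (0.318, next 1.82). Its list scores were 3.28 for tubular injury (next 0.596), 6.16 for neutrophils (next 1.17), 2.91 for complement and acute phase (next 0.319), 1.17 for senescence and p53 (next 0.165), 1.53 for immediate early genes (next 0.247), -0.54 for the renin-angiotensin-aldosterone system (next -0.178) and -0.627 for the circadian clock (next -0.139). Its nuclear RNA share was 0.959% (next 0.612%).

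In other TLS animals, B51B had a score of 0.842 for fatty acid oxidation (next 0.241), and 47BE had 0.364 for endoplasmic reticulum chaperones (next -0.0597). At time zero, animal 3 had 58.3 CPM of Star (next 2.19) and an adrenal score of 2.26 (next 0.379), animal 4 had 1.77 CPM of S100a9 (next 0.292), and animal 7 had a score of 0.25 for cold-inducible RNA-binding proteins (next 0.0484). The response of Slc7a13 to TLS differed between the sexes by -3.38 on the log2 scale, M minus F, by the edgeR test of that difference (adjusted p = 0.0281).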

How the results depend on the processing

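Called genes between TLS and time zero made up 0.681% of those tested (0.337% higher, 0.344% lower). The share was 2.55% with DESeq2 (1.33% and 1.22%), 14.2% with limma voom and sample weights (7.39% and 6.79%), 0.125% without the sex covariate (0.0812% and 0.0437%), 0.279% with only the 2 groups compared in the fit (0.123% and 0.156%), 1.21% in F libraries only (0.745% lower), and 0.0254% in M libraries only, 4 genes, all higher, with 0 lower (317 lower at an unadjusted p below 0.05 in edgeR). It was 1.45% without time-zero animals 4 and 5, whose sex letters differ between kidney and other tissues in the labels (0.564% and 0.882%). In fits chosen after seeing the data it was 0.0831% with time-zero animals 1 to 4 only (0.0297% and 0.0534%) and 0.432% without A5DA and B4B9 (0.204% lower). Leaving out 1 library gave 0.223% to 2.0% called, 0.0992% to 1.08% higher and 0.124% to 0.927% lower.

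For control against time zero (0.312%) the share was 1.34% with DESeq2, 15.7% with voom, 0.075% without the sex covariate, 0.625% with the share of nuclear RNA in the model, 0.916% with only the 2 groups, 12% in F only, 0 in M only (293 genes at an unadjusted p below 0.05 in edgeR), 0.0613% without time-zero animals 4 and 5, 0.154% with time-zero animals 1 to 4 only, 0.839% without A5DA and B4B9, and 0.0868% to 0.758% over leave-outs. For TLS against control (0.231%) it was 0.631%, 2.49%, 0.0437% and 0.0775% for DESeq2, voom, no sex covariate and only the 2 groups, 0 in M only (667 unadjusted) and 0.0992% to 0.222% over leave-outs. For the sex difference (0.00625%) it was 0.0187% with DESeq2, 0 with voom (1767 unadjusted), 0 without a low-count filter (1336 unadjusted in edgeR), 0 with only the 2 groups (422 unadjusted) and 0 to 0.0124% over leave-outs, 11 of which gave 0 (445 to 867 unadjusted).

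The single genes that changed sign were not called. Of 59 list medians, 13 changed sign without A5DA, 3 without B4B9, 16 without both, 15 with the nuclear RNA share, 9 in F only, 5 in M only, 7 with time-zero animals 1 to 4 only and 0 with RLE size factors. Beside those in the report, the fat list had 0.0416, the circadian list -0.0751 and the thick ascending limb list -0.0135 in M only, and the matrix list had 0.000952 in F only. In the order voom, nuclear RNA share, F only, time-zero animals 1 to 4 only, and without A5DA and B4B9, Cirbp had -0.031, -0.086, -0.090, -0.0062 and -0.14, Col1a1 had -0.32, -0.47, -0.15, -0.052 and -0.48, and Umod had -0.029, -0.044, -0.012, -0.095 and -0.069 (with -0.0046 under a strict filter and -0.060 without time-zero animals 4 and 5). Arntl had -0.10 with voom, -0.70 in F only, -0.13 without time-zero animals 4 and 5 and -0.59 with animals 1 to 4 only. Aqp2 had -0.10 in M only, -0.0031 with animals 1 to 4 only and -0.022 without A5DA and B4B9, Lcn2 had -1.01 with the nuclear RNA share and -0.54 without A5DA and B4B9, Per2 had -0.082 in M only, and Igha had 0.11 with voom and 0.055 in M only. Over leave-outs Cirbp ran from -0.047 to 0.14, Arntl from -0.0014 to 0.36, Lcn2 from -0.29 to 4.15, Umod from -0.066 to 0.027, Aqp2 from -0.10 to 0.15, Igha from -0.18 to 0.11 and Col1a1 from -0.35 to 0.27. The cause was not tested. No paired analysis was possible because each kidney library is a different animal and only the time-zero titles carry numbers.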

Other observations

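Cytosolic ribosomal protein genes shared a small difference. All 49 tested were above 0 after TLS with a median log2 fold change of 0.47, none was called (0.681% of all genes were), and the median was 0.42 without A5DA and 0.14 for control against time zero. Their summed level was 11140 to 35380 CPM at time zero, 17350 to 46920 CPM after TLS and 14360 to 43150 CPM in controls, so the groups overlapped. Igfbp2, a binding protein for insulin-like growth factors, had 2.39 to 9.13 CPM at time zero (median 6.26) and 4.61 to 48.7 CPM after TLS (median 14.6). Its difference was 1.41 ± 0.397 (adjusted p = 0.0927) against time zero and 1.95 (adjusted p = 0.037) against control.

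Blood cell genes, none of 9 tested called, summed over all 10 listed to 221.9 to 873.1 CPM at time zero, 82.58 to 2909 CPM after TLS (highest in E46E) and 74.64 to 2146 CPM in controls. The lists for the cell cycle (32 tested) and senescence and p53 (16 tested) had no called gene either, while 0.681% of all genes were called. Their medians were 0.08 and 0.16, and 0.00582 and -0.0431 without A5DA.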
